A study of Mus musculus with 49 samples.

Results

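Cre-Mlo and Cre-Mhi cells are sorted fractions of cultured mouse immature B cells of a single genotype, and the arrays of both fractions, 8 of the 49 in the series, are compared here pair by pair. They were chosen by their titles, 4 arrays of each fraction numbered 1 to 4, and arrays with the same number were treated as a pair. The mice carried a B1-8 heavy chain allele (written B1-8h in the labels, and described as flanked by loxP sites in the study's methods), the 3-83(kappa) light chain allele and Mx-Cre, a Cre recombinase driven by an interferon-inducible promoter. Bone marrow cells had been expanded with interleukin-7, then grown without it in interferon alpha beta for 2 d, and sorted for low or high surface IgM. The 4 Ctrl-Mhi arrays, used only as a reference level, came from IgM-high cells of mice with the same heavy and light chain alleles but no Mx-Cre, treated with interferon in the same way. Both Cre fractions therefore share the transgene and the interferon.

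The fractions differ in the surface IgM by which they were sorted, so a lower heavy chain signal in Cre-Mlo cells is tied to the gate. According to the study's PCR assay some Cre-Mhi cells had already deleted the heavy chain allele, which makes Cre-Mhi a mixed reference. The methods describe 4 independent sorts of each fraction, without saying which animals gave them. Each value is the RNA of a sorted population, in which a change in the share of cells and a change in RNA per cell cannot be told apart.

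An immature B cell carries a complete B cell receptor, made of heavy and light chains, and has largely closed the stage at which Rag1 and Rag2 cut DNA to assemble receptor genes. The receptor sends a low basal signal even without antigen, through kinases and adaptor proteins, and the FoxO transcription factors that promote Rag expression are held down by the PI3 kinase arm of that signal. Receptors of the mature stage, such as CD20, CD21, CD22 and CD23, and MHC class II proteins, which present peptides to T cells, are gained as B cells develop beyond the precursor stages. The comparison asks which transcripts differed between cells of 1 genotype and treatment that had lost or kept surface IgM. The pairs rest on the number in the title, and the labels do not state that both fractions of a pair came from the same culture.

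The deposited table gives a signal, the summarized hybridization intensity, for each of 9977 probe sets, sets of oligonucleotides that measure a transcript. Median signals of the 12 arrays lay between 460.4 and 544 units. Of the probe sets, 8724 match 1 gene, for 7417 genes in all, and a gene with several is represented by the brightest. Array Cre-Mhi 3 correlated less well with its group (0.932 to 0.946) than the other Cre-Mhi arrays did among themselves (0.950 to 0.955) and held the highest signal of the 12, 216246 units.

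Several transcripts followed the number of the sort rather than the gate. Xist, the RNA of the inactive X chromosome, gave 3958 units in Cre-Mhi 4 and 3784 in Cre-Mlo 4, and at most 145 in the other 6 Cre arrays. Eif2s3y, a gene of the Y chromosome, gave 21.7 and 70.3 units in that pair and 2339 to 3121 in the others. The cells of pair 4 thus had the transcripts of female mice and those of pairs 1 to 3 of male mice.

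The brighter probe set of Mtm1, a lipid phosphatase gene, gave 1104 and 941 units in the arrays of pair 2, against 21363 to 27169.7 in pairs 1, 3 and 4. A second Mtm1 probe set did not follow the number, with 1498.5 and 1268.1 units in pair 2 and 1045.2 to 1624.7 in the other pairs. The low level in pair 2 thus rests on 1 probe set and may not be that of the Mtm1 transcript. Tpi1, an enzyme of glycolysis, was high in pair 4, with 17232 and 14985 units against 2952 to 4216 in the other pairs. The limma F-test of the number term passed 2 of 9977 probe sets (0.0200% at an adjusted p under 0.05, 939 at an unadjusted p under 0.05). They were the brighter Mtm1 probe set and a probe set without a gene name. In the Ctrl-Mhi group Xist was high in arrays 2 and 3, so numbers there do not match the numbers of the Cre sorts.

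**Figure D1:**
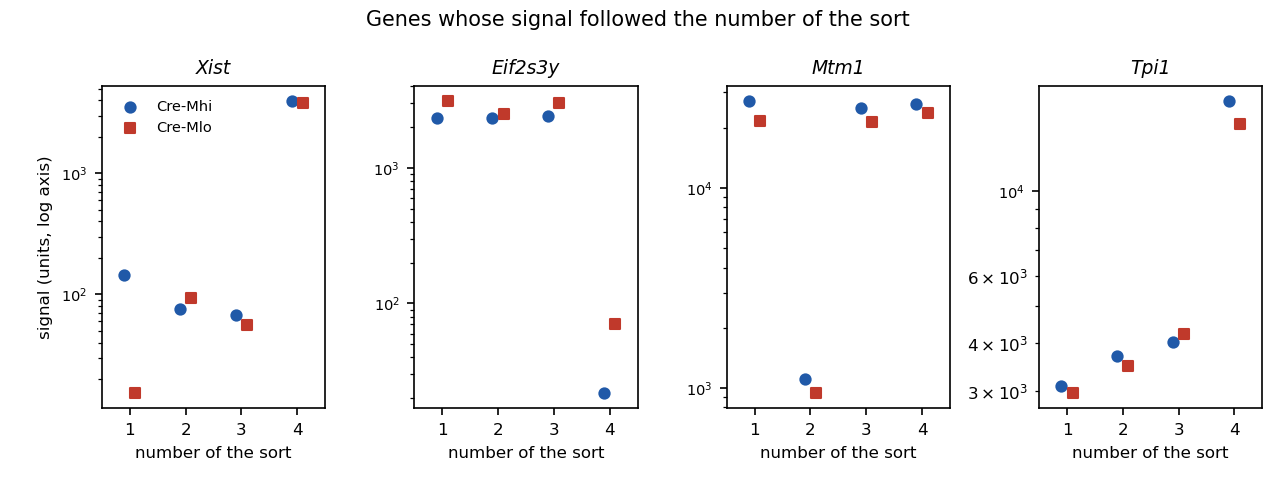
Signal in units (log axis) of Xist, Eif2s3y, Mtm1 and Tpi1 against the number of the sort, with blue circles for Cre-Mhi and red squares for Cre-Mlo arrays, 1 point an array. Both arrays of pair 4 are high in Xist and Tpi1 and low in Eif2s3y, and both arrays of pair 2 are near 1000 units in Mtm1. For Mtm1 the brighter probe set is shown, and a second did not follow the number.

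In the paired fit with limma, 93 probe sets were higher and 107 lower in Cre-Mlo than in Cre-Mhi cells, 2.00% of 9977 at an adjusted p under 0.05. Without adjustment 1838 of the 9977 had a p under 0.05, the level to set beside such counts in the lists below. All 200 called probe sets moved the same way in all 4 pairs, and in 189 of them no Cre-Mlo array overlapped a Cre-Mhi array. The difference was at least 2-fold in 179. By genes, 83 of 7417 rose (1.12%) and 78 fell (1.05%), and the median log2 difference of all genes was -0.03. Counting overlap alone, 585 genes (7.89%) were higher in every Cre-Mlo array than in any Cre-Mhi array and 507 (6.84%) were lower.

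The number of calls depended strongly on the setting. Without the number as a block 460 probe sets passed, and with 3 pairs in place of 4 between 0 and 8 passed: 0 without pair 1 (1417 at an unadjusted p under 0.05), 8 without pair 2, 3 without pair 3 and 3 without pair 4. The log2 differences of the 55 called genes that are named by rule moved by at most 0.40 (Dntt) when a pair was left out. All 4 pairs had the same sign in each of these genes, so leaving out a pair could not turn a direction. The genes were called in the same 4 pairs, so the small moves are no independent evidence. The calls below are those of the 4-pair fit. Over the 5014 probe sets that averaged 500 units or more, the log2 differences of the separate pairs correlated at 0.60 to 0.71, a description across probe sets, which are not independent.

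**Figure D2:**
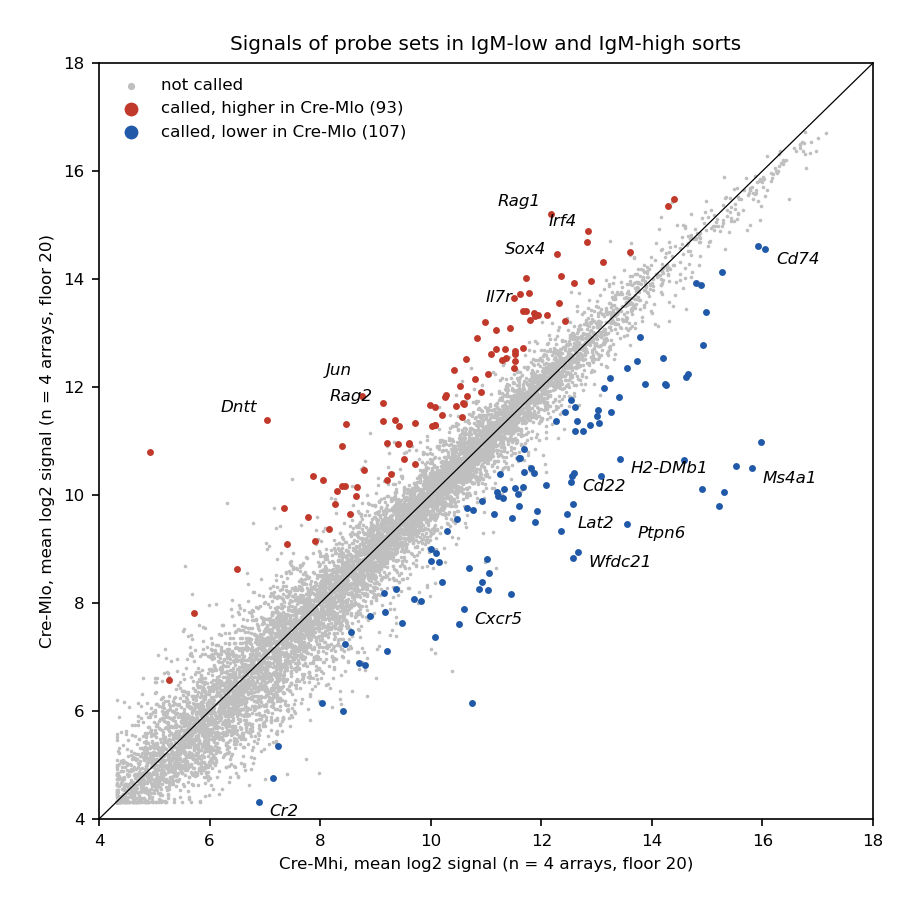
Mean log2 signal in Cre-Mlo (vertical axis) against Cre-Mhi (horizontal axis) for 9977 probe sets, means of 4 arrays with signals under 20 raised to 20. Red points are the 93 probe sets called higher in Cre-Mlo, blue points the 107 called lower and grey points the rest, and the line marks equal signals.

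Some heavy chain probe sets fell and others did not. The probe set that matches Ighm together with the variable segments Ighv1-53 and Ighv1-72 gave 39507, 36223, 33631 and 42974 units in Cre-Mhi arrays 1 to 4 and 817, 745, 1076 and 975 in Cre-Mlo arrays 1 to 4 (log2 difference -5.41, SE 0.16, adjusted p = 0.00293). The Ighv1-54 probe set had a mean of 31113 ± 4709.6 in Cre-Mhi and 1122 ± 157 in Cre-Mlo cells (SD, n = 4 each; -4.79, SE 0.20, adjusted p = 0.00632). In both, the arrays of a group lay close together and the groups far apart. Other variable segments did not pass, among them Ighv14-2 (-1.28 to -0.78 in 3 probe sets), Ighv3-6 (-0.74) and Ighv5-12 (0.03).

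A bright Ighm probe set did not follow them to that depth, with 121708, 128896, 140481 and 123525 units in Cre-Mhi and 79149, 90252, 84068 and 84101 in Cre-Mlo arrays (-0.61, SE 0.11, adjusted p = 0.0834). Its groups did not overlap, but it did not pass the test. In array Cre-Mhi 1 no probe set gave a higher signal, and whether signals this high still follow the amount of RNA was not tested. A dimmer probe set that matches Ighm alone fell from 2153 ± 391 to 398 ± 142 units (-2.50, SE 0.19, adjusted p = 0.0212). Other probe sets that match Ighm alone did not pass. Among heavy chain probe sets, 4 of 38 fell and 0 rose, and the median log2 difference over the 38 was -0.68. Among the 18 with a mean of at least 500 units in either group, 15 had negative and 3 positive differences, and the median was -1.14.

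Kappa light chain segments moved in both directions. Of 36 probe sets 3 rose and 3 fell, and the median difference was 0.03. Among the 23 that averaged 500 units or more in either group, 14 had negative and 9 positive differences, 10 were lower and 4 higher without overlap, and the median was -0.34. Igkv1-133 gave 1188, 1685, 1409.9 and 1231 units in Cre-Mhi and 4082, 5884, 5366 and 5291 in Cre-Mlo arrays (1.90, SE 0.12, adjusted p = 0.0148). Igkv6-14 went from 2664 ± 546 to 5926 ± 402 (1.17, adjusted p = 0.0374) and Igkv8-19 rose by 1.00 (adjusted p = 0.0444).

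Igkv9-120 gave 5515, 4623, 6216 and 4848 units in Cre-Mhi and 622, 921, 751 and 397 in Cre-Mlo arrays (-3.03, SE 0.24, adjusted p = 0.0213). Igkv14-111 and Igkv4-59 also fell, by 2.38 (adjusted p = 0.0183) and by 1.71 (adjusted p = 0.0165) on the log2 scale. Dimmer probe sets of Igkv9-120 (-0.50 and 0.57) and Igkv14-111 (-0.48 and -0.32) did not pass. Nor did a dimmer one of Igkv6-14 (0.29). Segments of a family are near copies of each other, so the segment that gave a signal is uncertain. Of 2 lambda probe sets, the one that matches Iglc1 and Iglv1 gave 11781 ± 2621 units in Cre-Mhi and 18646 ± 3299 in Cre-Mlo cells. Its groups did not overlap, and it did not pass (0.68, SE 0.16, adjusted p = 0.132). The other, dimmer and matching Iglc1 alone, went the opposite way with overlap, from 434 ± 168 to 225 ± 160 units, and did not pass either (-1.16, SE 0.46, adjusted p = 0.288).

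Of 8 measured genes of the V(D)J recombination list 4 rose and 0 fell, and the median was 0.95. Rag1 signals were 3823, 3968, 4597 and 6489 units in Cre-Mhi arrays 1 to 4 and 38024, 37382, 31900.4 and 44561 in Cre-Mlo arrays 1 to 4 (log2 difference 3.03, SE 0.15, adjusted p = 0.00933). Rag2 signals were 647, 348, 487 and 938 in Cre-Mhi and 3668, 3546, 3400.0 and 2769.7 in Cre-Mlo arrays (2.55, SE 0.32, adjusted p = 0.0433). Neither gene overlapped between the groups, and pair 4 held the highest Cre-Mhi value of both. Its log2 difference in Rag2 was the smallest of the 4 pairs, 1.56 against 2.50 to 3.35.

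Dntt, which encodes TdT, the enzyme that adds bases at segment joints, had 57.2, 135, 262 and 149 units in Cre-Mhi and 2656, 2725, 3215 and 2192 in Cre-Mlo arrays (4.34, SE 0.36, adjusted p = 0.0225). Every Cre-Mhi value was near the dim end of the arrays, so the size of this difference is the least certain of the list. A second, dim Dntt probe set (means 80 and 148) did not pass (0.59, adjusted p = 0.63). Xrcc6 encodes Ku70, a protein that binds DNA breaks, and had 1921, 3044, 3875 and 3202 units in Cre-Mhi and 11424, 14362, 12256 and 13768 in Cre-Mlo arrays (2.14, SE 0.18, adjusted p = 0.0225).

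The other 4 of the 8, which act in end joining, repair signalling or DNA bending, had negative differences that did not pass: Atm -0.54, Prkdc -0.44, Hmgb2 -0.36 and Xrcc5, the partner of Xrcc6, -0.24. The Xrcc5 probe set was dim, with means of 248 and 215 units.

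Precursor cell genes rose in part. A list of 15 such genes held 3 that rose and 1 that fell, and its median was 0.88. Il7r, the receptor for the growth factor of precursor cells, gave 2488, 2363, 3622 and 5236 units in Cre-Mhi and 10621, 9003, 12295 and 12090.5 in Cre-Mlo arrays (1.75, SE 0.19, adjusted p = 0.0326). Sox4, a transcription factor needed in early B cells, gave 3879, 3860.1, 5077 and 7991 against 20724, 19572, 25241 and 25077 (2.18, SE 0.18, adjusted p = 0.0225). For both, Cre-Mhi 4 was the highest array of its group and still below every Cre-Mlo array.

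Lef1, another factor of pro-B cells, rose from 2613 ± 75.5 to 6726 ± 738 units (1.36, adjusted p = 0.0258). The surrogate light chain genes, whose products pair with a new heavy chain before a light chain exists, did not pass in 4 pairs. Vpreb1 gave 2631 ± 767 and 5592 ± 489 units (1.12, SE 0.19, adjusted p = 0.0782). Igll1 gave 1863 ± 708 and 4018 ± 434 (1.18, SE 0.26, adjusted p = 0.12). The groups of both genes did not overlap, and Cre-Mhi 4 was the highest Cre-Mhi array in each. Myb, a regulator of precursor growth, gave 21546 ± 5432 and 44111 ± 4665 (1.06, adjusted p = 0.061).

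The exception was Lyl1, a basic helix-loop-helix factor of early blood progenitors, with 15349, 15261, 15043 and 14622 units in Cre-Mhi and 4188, 5349, 4573 and 3212 in Cre-Mlo arrays (-1.82, SE 0.15, adjusted p = 0.0225). Its second probe set fell as well (-1.91, adjusted p = 0.023). Kit, Flt3 and Cd34, which mark earlier progenitors, did not pass, with differences of -0.45, -0.16 and -1.05. Kit and Cd34 were dim, with means of at most 108 units.

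Among 19 B lineage transcription factors 1 rose and 0 fell, with a median of 0.05. That gene was Irf4, which acts in light chain rearrangement and in plasma cells, with 7884, 5898, 5892 and 10366 units in Cre-Mhi and 25451, 22989, 27271 and 29753 in Cre-Mlo arrays (1.85, SE 0.16, adjusted p = 0.0225). Pax5 and Ebf1, which set B cell identity, had means of 10614 and 10858 units and of 10720 and 13550 units, differences of 0.01 and 0.33 that did not pass. Id3, an inhibitor of E proteins, gave -1.03 (adjusted p = 0.0559) and Pou2f2, the gene of Oct2, -1.28 (adjusted p = 0.102).

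**Figure D3:**
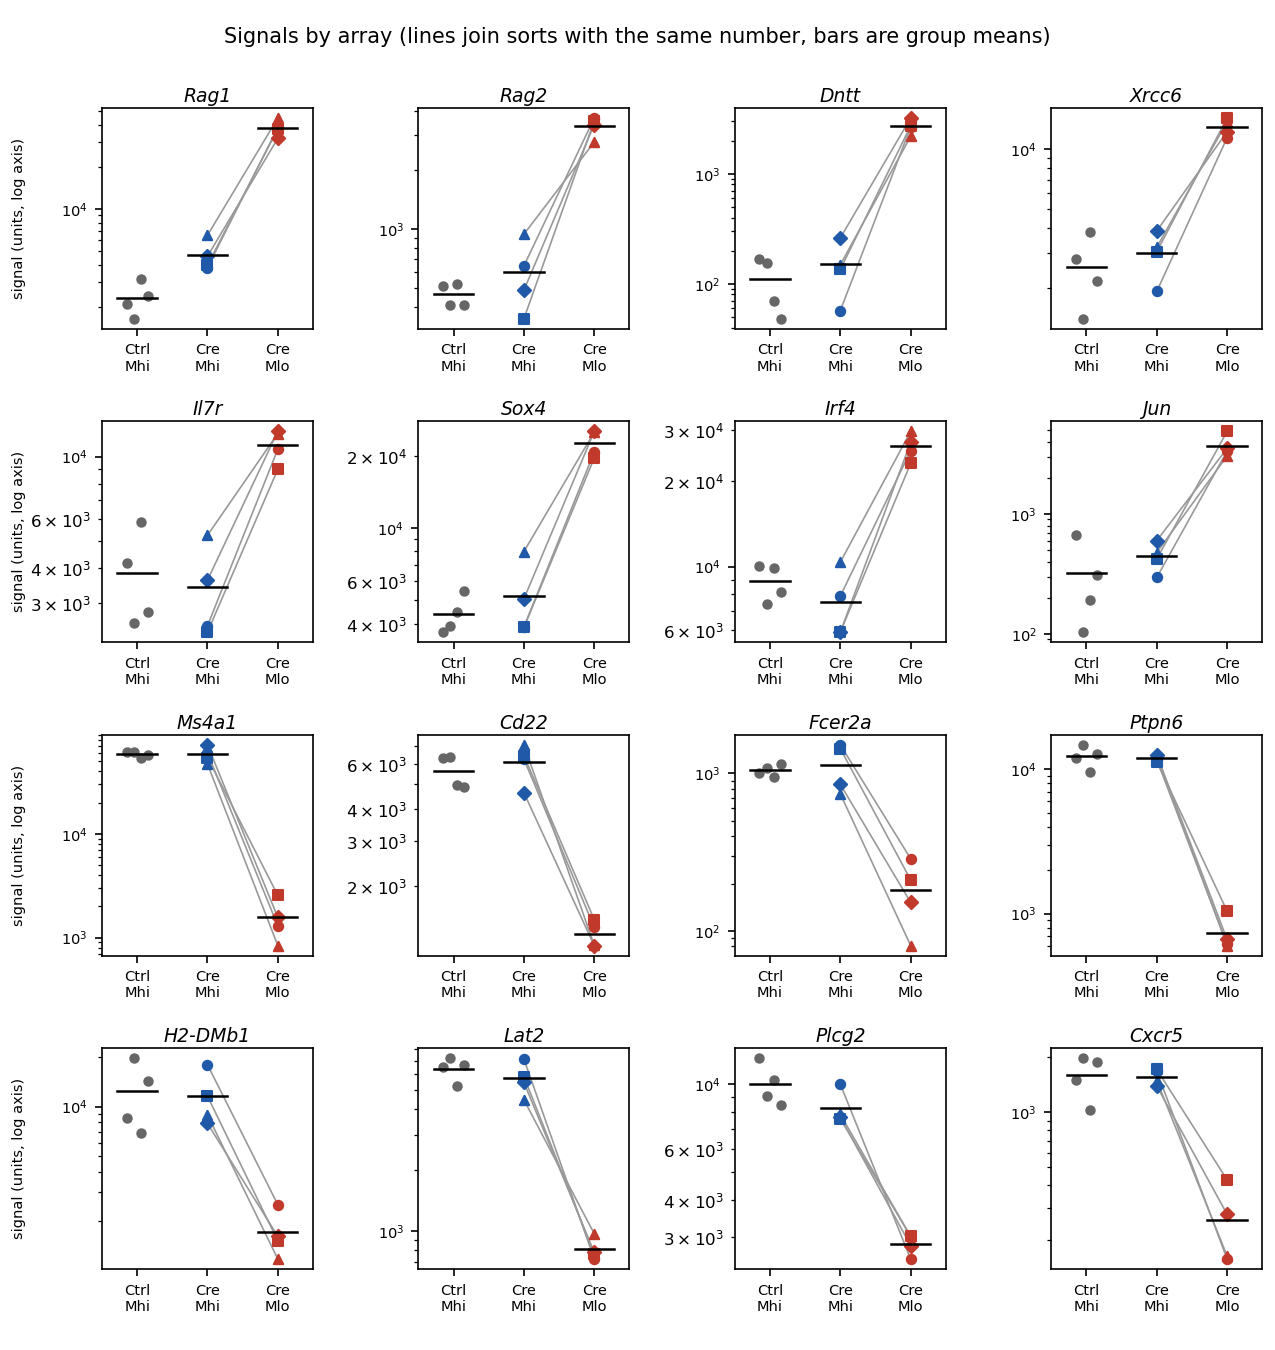
Signal in units (log axis) of 16 genes in each array, with grey points for Ctrl-Mhi, blue for Cre-Mhi and red for Cre-Mlo. Lines join Cre arrays with the same number (circle 1, square 2, diamond 3, triangle 4) and bars are means of 4 arrays, and no Cre-Mlo array overlaps a Cre-Mhi array in any of the genes.

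Several surface receptors of the later B cell stages fell. In the mature B cell surface list 7 of 18 measured genes fell and 0 rose with limma. The methods' t-test, on linear signals without pairs, passed 2 of the 18 after adjustment. All 18 had negative differences, 16 did not overlap between the groups, and the median was -0.89. Ms4a1, the gene of CD20, had 60191, 54418, 72085 and 47179 units in Cre-Mhi and 1301, 2559.7, 1569.8 and 839.6 in Cre-Mlo arrays (-5.32, SE 0.27, adjusted p = 0.00933), a ratio of means of 37.3. Its second probe set gave -4.98 (adjusted p = 0.013).

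Fcer2a, the gene of the IgE receptor CD23, had 1516, 1436, 852 and 741 units in Cre-Mhi and 288, 211, 152 and 81.1 in Cre-Mlo arrays (-2.71, SE 0.18, adjusted p = 0.0165). Within each group pairs 1 and 2 were higher than pairs 3 and 4, so the levels of this gene moved with the number of the sort in both fractions. Cr2, the complement receptor CD21, was dim in Cre-Mhi (74 to 223 units) and under 20 units in every Cre-Mlo array (2.7 to 11). Its log2 difference of -2.58 (adjusted p = 0.0344) is set by the floor of 20.

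Ly86, which forms a complex with the toll-like protein RP105, fell by 1.14 (adjusted p = 0.0473). Cd83, Pirb and Lgals3 did not pass, with -1.11 (-1.63 for a second probe set), -1.10 and -1.45. Ptprc, which encodes the B220 antigen used in the sorts, gave 7169 and 4272 units on average (-0.74, adjusted p = 0.119).

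Some inhibitors of receptor signalling fell too. Of 16 inhibitory receptors and phosphatases 4 fell and 0 rose with limma, at a median of -0.43, and 2 passed the methods' t-test after adjustment. Ptpn6, the gene of SHP-1, a tyrosine phosphatase recruited by inhibitory receptors, had 11728, 11343, 12571 and 12632 units in Cre-Mhi and 611, 1041, 661 and 600.1 in Cre-Mlo arrays (-4.09, SE 0.20, adjusted p = 0.00933). The 4 Cre-Mhi arrays lay close together and the means differed 16.6-fold.

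Cd22, a sialic acid receptor that recruits SHP-1, had 6245, 6431, 4622 and 7088 units in Cre-Mhi and 1386, 1487, 1179 and 1182 in Cre-Mlo arrays (-2.21, SE 0.15, adjusted p = 0.0165). Cd72 and Fcgr2b, inhibitory receptors on the same surface, fell less, by 0.87 (adjusted p = 0.0425) and by 0.89 (adjusted p = 0.0444). The lipid phosphatase Inpp5d, known as SHIP, did not pass (-0.32). Cd22, Cd72 and Fcgr2b stand in both lists.

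The MHC class II chains H2-Aa, H2-Ab1, H2-Ea and H2-Eb1 fell. Of 14 measured genes of the MHC class II list 8 fell and 0 rose, all 14 differences were negative, and the median was -1.55. The genes that fell were the peptide-binding chains H2-Aa, H2-Ab1, H2-Ea and H2-Eb1, the peptide exchange factors H2-DMa, H2-DMb1 and H2-DMb2, and Cd74, the invariant chain. In mice these chains are encoded close together on chromosome 17, apart from Cd74. Their transcription is known to need a promoter module that ends in the Y box, an inverted CCAAT box bound by NF-Y, together with the coactivator Ciita.

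Promoters from 250 bases before to 50 after the start site were given by RefSeq for 10 of the 14 genes (build GRCm38.p6). The motif CTGATTGG, searched on both strands, lay in 4 of them, H2-Aa, H2-Eb1, H2-Eb2 and H2-Oa, and in 4.10% of all 32851 promoters. Its last bases, GATTGG, a shorter form searched after the result was seen and contained in the first, lay in 9 of the 10 and in 16.1% of all promoters. The sequences below are shown for 3 genes that fell, with the matched bases in capitals. They lie at chr17:34287774-34288073 on the minus strand (H2-Aa), chr17:34305617-34305916 on the plus strand (H2-Eb1) and chr17:34152941-34153240 on the plus strand (H2-DMb1), and the match begins 51, 62 and 62 bases before the start site. For H2-DMb1 the capitals mark the shorter form.
H2-Aa: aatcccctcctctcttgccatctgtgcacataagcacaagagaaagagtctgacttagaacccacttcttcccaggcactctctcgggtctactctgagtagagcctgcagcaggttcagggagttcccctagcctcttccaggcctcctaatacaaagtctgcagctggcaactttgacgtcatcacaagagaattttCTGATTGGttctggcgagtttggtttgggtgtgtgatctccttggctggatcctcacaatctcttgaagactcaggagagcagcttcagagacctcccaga
H2-Eb1: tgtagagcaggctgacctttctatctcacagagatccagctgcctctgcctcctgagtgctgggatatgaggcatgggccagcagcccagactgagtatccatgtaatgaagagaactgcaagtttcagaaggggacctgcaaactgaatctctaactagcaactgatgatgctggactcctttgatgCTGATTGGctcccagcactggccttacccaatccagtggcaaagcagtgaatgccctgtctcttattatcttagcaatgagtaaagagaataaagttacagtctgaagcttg
H2-DMb1: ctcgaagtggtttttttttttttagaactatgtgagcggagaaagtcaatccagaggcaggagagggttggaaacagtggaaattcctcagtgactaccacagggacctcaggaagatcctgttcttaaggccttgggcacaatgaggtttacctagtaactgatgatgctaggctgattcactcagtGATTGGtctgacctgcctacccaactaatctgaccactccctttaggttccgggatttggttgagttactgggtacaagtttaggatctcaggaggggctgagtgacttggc

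The match describes the letters only, and any part of the motif in the falls was not tested. H2-Oa and H2-Eb2, which hold the longer motif, had negative differences that did not pass (-1.03 and -0.55). H2-Eb2 was dim, with means of 96 and 74 units. H2-Ob, the partner of H2-Oa, gave -0.18 and the promoter-binding subunit Rfxank -0.02.

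H2-DMb1 had 18061, 11596, 7890.2 and 8896 units in Cre-Mhi and 2512, 1507, 1609 and 1169 in Cre-Mlo arrays (-2.75, SE 0.16, adjusted p = 0.0127). H2-Eb1 had 36677, 24232, 19779 and 22270.5 against 7154, 3592, 3707 and 4951 (-2.42, SE 0.14, adjusted p = 0.0127). H2-Aa had 40988, 26029, 22232 and 18294 against 8854, 3521, 3836 and 4636 (-2.40, SE 0.19, adjusted p = 0.0213). In all 3 genes array 1 was the highest of its group in both fractions. The pair differences of H2-Aa ran from -2.89 to -1.98 and those of H2-DMb1 from -2.94 to -2.29.

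Cd74 had 84730.1, 79939, 42769 and 74049 units in Cre-Mhi and 29365, 23196, 16747 and 29261 in Cre-Mlo arrays (-1.50, SE 0.13, adjusted p = 0.0229). Pair 3 was the lowest in both fractions. The calls of the 8 genes come from limma, and the methods' t-test, on linear signals without pairs, passed 0 of the 14 after adjustment. Ciita gave 1636 ± 464 and 687 ± 106 units without overlap (-1.22, SE 0.22, adjusted p = 0.0817) and did not pass. By contrast, of 14 genes of MHC class I and peptide processing 0 passed in either direction with limma (3 at an unadjusted p under 0.05, and 0 by the methods' t-test after adjustment), and the median was -0.16. Of these, Psmb9, a proteasome subunit, had the smallest adjusted p (-0.58, adjusted p = 0.0928).

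**Figure D4:**
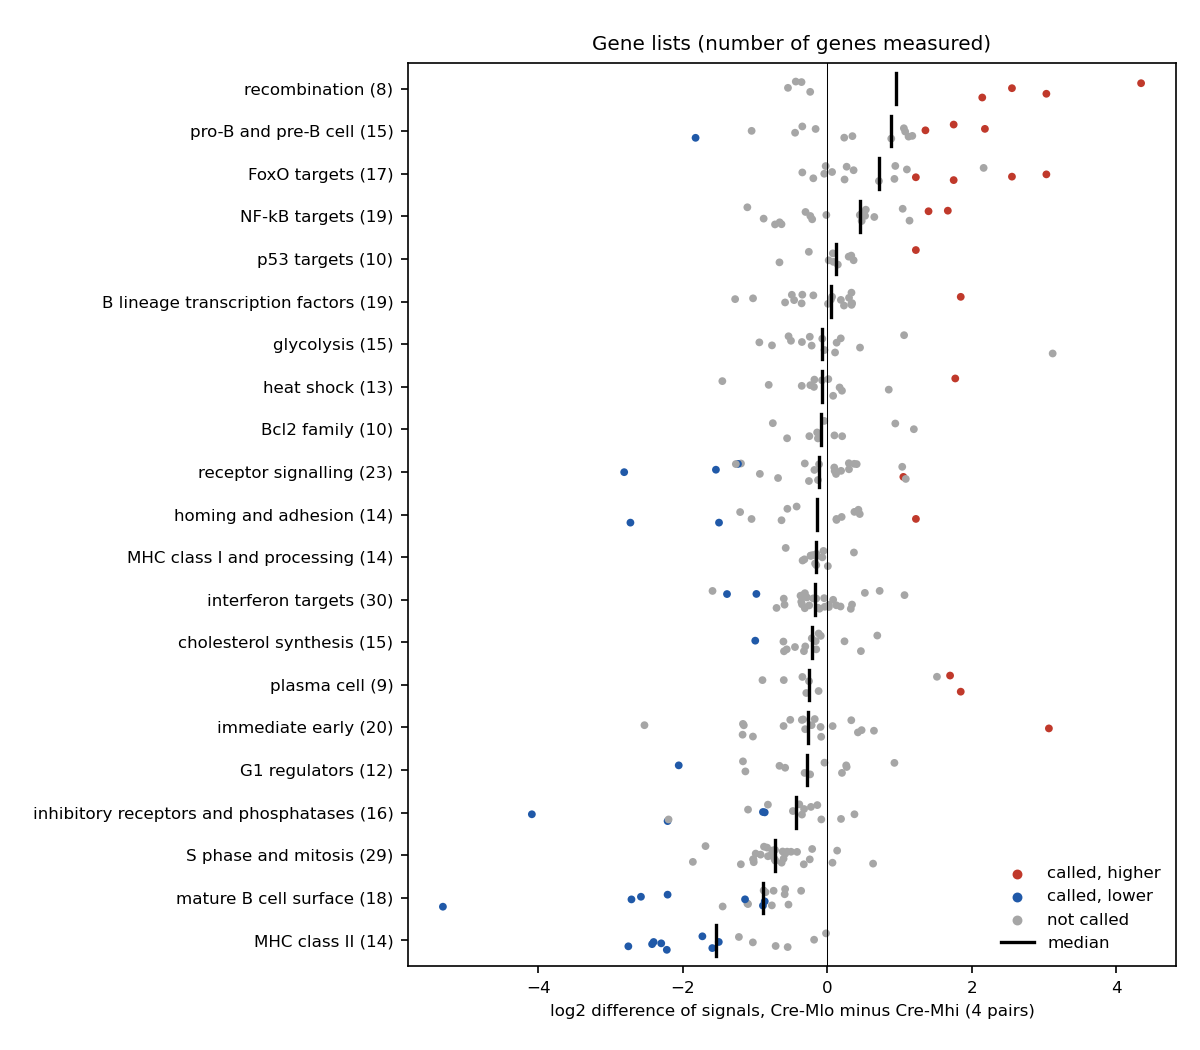
Log2 difference, Cre-Mlo minus Cre-Mhi, of each measured gene of 21 lists, with red points called higher, blue called lower, grey not called and a black bar at the list's median. MHC class II (median -1.55) and mature B cell surface (-0.89) lie lowest, and recombination (0.95) and pro-B and pre-B cell (0.88) highest.

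The components of receptor signalling did not move as a group. Of 23 measured genes 1 rose and 3 fell, and the median was -0.11. Lat2, a membrane adaptor known as NTAL, had 7122, 5820.3, 5452 and 4469 units in Cre-Mhi and 724, 764, 780.2 and 966 in Cre-Mlo arrays (-2.81, SE 0.21, adjusted p = 0.0205). Plcg2, the phospholipase that raises calcium after receptor binding, had 9984, 7612, 7703 and 7869.9 against 2523, 3012, 2804 and 3015 (-1.54, SE 0.16, adjusted p = 0.0304). Both genes were lower in every Cre-Mlo array by a margin wider than either group's range.

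Sh3bp2, an adaptor that binds Syk, fell by 1.24 (adjusted p = 0.0482) and the exchange factor Vav1 gave -1.19 (adjusted p = 0.0513). Blnk, the adaptor that links Syk to Plcg2, rose from 20332 ± 3244 to 41880.1 ± 3734 units (1.05, SE 0.12, adjusted p = 0.0334). Its second probe set gave 0.79 and did not pass (adjusted p = 0.11). The kinases Syk, Btk and Blk did not pass, with 0.37, -0.25 and 0.10, and the receptor chain Cd79a gave -0.13.

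Immediate early genes, which respond within minutes to receptor and other signals, differed among themselves. Of 20 genes 1 rose and 0 fell, and the median was -0.26. Jun, a subunit of AP-1, had 295, 422, 599.8 and 476 units in Cre-Mhi and 3338, 4882, 3522 and 3049 in Cre-Mlo arrays (3.07, SE 0.24, adjusted p = 0.0212). Egr1 went the other way, with 2010.5, 4197, 2022 and 1697 against 552, 601, 139 and 565, and did not pass (-2.53, SE 0.43, adjusted p = 0.0763). Its groups did not overlap, and array Cre-Mhi 2 was high and Cre-Mlo 3 low. Ier2 resembled it, with means of 2977 and 1262 units (-1.16, adjusted p = 0.0763) and its highest value in Cre-Mhi 2. The AP-1 subunits Junb, Jund and Fosb gave -0.61, -0.31 and -0.17.

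Targets of FoxO factors rose in 4 of 17 cases and fell in 0, with a median of 0.71. The 4 were Rag1, Rag2, Il7r and Gadd45a, a stress gene that went from 1086 ± 184 to 2526 ± 286 units (1.23, SE 0.15, adjusted p = 0.0394). The list holds members from other lists, and Rag1, Rag2 and Il7r are counted there too. Irs2, an insulin receptor substrate, gave 162 and 707 units on average (2.16) and did not pass, with adjusted p = 0.067. Foxo3 itself gave -0.02. The motif TGTTTAC, on both strands, lay in promoters of 2 of 16 members, Bcl2l11 and Sesn1, against 3.65% of all promoters, and neither of those genes was called.

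Of 19 genes of the NF-kB list 2 rose and 0 fell, at a median of 0.45. The list is named for targets of NF-kB, but its member Traf6 is a signalling adaptor. Traf6, an adaptor of toll-like and interleukin-1 receptors, had 3429.7, 4448, 3911 and 4001 units in Cre-Mhi and 9669, 10861, 10518 and 10503 in Cre-Mlo arrays (1.40, SE 0.11, adjusted p = 0.0213). Tnfaip3, the feedback inhibitor A20, had 548, 343, 335 and 622 against 1280.5, 1398, 1399.9 and 1588 (1.67, SE 0.21, adjusted p = 0.0425). Nfkbia, the inhibitor that NF-kB induces, gave 12655 ± 1879 and 25925 ± 1853 and did not pass (1.04, adjusted p = 0.0649), while its dimmer second probe set did (1.05, adjusted p = 0.033). Cd83 and Ltb, also in the list, gave -1.11 and -0.88.

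Interferon was present in every culture and drives the Mx-Cre transgene. Of 30 interferon targets 2 fell and 0 rose, at a median of -0.17. Ifit2, which binds viral RNA, had 2129.8, 3111, 3317 and 3392 units in Cre-Mhi and 696, 1269.9, 1212 and 1484 in Cre-Mlo arrays (-1.39, SE 0.13, adjusted p = 0.0241). Mx1, whose promoter is that of the transgene, had 5389, 7047, 6723 and 6121 against 2487, 3706, 3366 and 3316 (-0.98, SE 0.11, adjusted p = 0.0351). In both genes array 1 was the lowest of its group in both fractions.

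Other genes of the list, such as Irf9, Ifi47 and Adar, gave -0.04, 0.02 and -0.04. Socs1, an inhibitor of cytokine signalling that interferon induces, gave 6568, 6112, 5891 and 7833 units in Cre-Mhi and 13535, 17243, 9719.8 and 15787 in Cre-Mlo arrays and did not pass (1.07, SE 0.17, adjusted p = 0.0661). The motif GAAANNGAA, a core of interferon response elements searched on both strands, lay in the promoters of 13 of 23 members, Socs1 and Adar among them, and in 8.56% of all promoters. The promoters given for Ifit2 did not hold it.

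Receptors for homing moved both ways. Of 14 genes of homing and adhesion 1 rose and 2 fell, at a median of -0.15. Cxcr4, the receptor for the marrow chemokine CXCL12, had 4676, 5614, 4526 and 5884 units in Cre-Mhi and 11384, 13024, 11432 and 12353 in Cre-Mlo arrays (1.23, SE 0.11, adjusted p = 0.0242). Cxcr5, the receptor that guides B cells to follicles, had 1673, 1711, 1388 and 1489 against 158, 428, 278 and 165 (-2.72, SE 0.29, adjusted p = 0.0326). Itgb7, an integrin chain of gut homing, fell by 1.50 (adjusted p = 0.0241). Ccr7 and Itga4 gave 0.20 and 0.13.

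Genes of S phase and mitosis were mostly lower without passing the test. With limma 0 of 29 passed, 21 had an unadjusted p under 0.05 and 2 passed the methods' t-test after adjustment. Of the differences 26 of the 29 were negative, and the median was -0.72 against -0.03 for all genes. Cdc20, an activator of the anaphase complex, gave 7207, 3606, 3354 and 8251 units in Cre-Mhi and 4199.8, 2228, 1754 and 4342 in Cre-Mlo arrays (-0.83, SE 0.11, adjusted p = 0.0522). The groups overlapped, because pairs 1 and 4 were high in both fractions, while each Cre-Mlo array was below its partner. Cdt1, a licensing factor of replication, gave 2217 ± 167 and 1128 ± 217 without overlap (-0.99, adjusted p = 0.061).

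Of 12 regulators of G1 phase 1 fell and 0 rose. Ccnd2, cyclin D2, which receptor signals induce in B cells, had 1691, 1729, 1965 and 1322 units in Cre-Mhi and 319.7, 404, 566 and 348 in Cre-Mlo arrays (-2.06, SE 0.15, adjusted p = 0.0189). The cyclin-dependent kinase inhibitor Cdkn1b gave 349 and 642 units on average and did not pass (0.93). Of 10 p53 targets only Gadd45a passed, and Cdkn1a and Mdm2 gave -0.66 and 0.30.

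In the Bcl2 family 0 of 10 passed with limma, 4 had an unadjusted p under 0.05 and 1 passed the methods' t-test after adjustment. Bcl2l1, which encodes the survival protein Bcl-xL, gave 4939, 3843, 2877 and 5275 units in Cre-Mhi and 10713, 6844, 9922 and 10955 in Cre-Mlo arrays (1.20, SE 0.20, adjusted p = 0.0719). Mcl1 and Bad gave -0.56 and -0.75. Bcl2 gave -0.25, and -1.84 and -1.61 in its dimmer probe sets. The groups of Bcl2l1, Mcl1 and Bad did not overlap.

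Of 9 plasma cell genes 2 rose, Irf4 and Prdm1, the gene of Blimp-1. Prdm1 was dim, with 172, 163, 160.2 and 179.5 units in Cre-Mhi and 452, 528, 642 and 582 in Cre-Mlo arrays (1.70, SE 0.14, adjusted p = 0.0225). The secretory genes Xbp1 and Hspa5 gave -0.12 and -0.29 and Jchain -0.25. In the heat shock list Hspa1b alone passed of 13, with 289, 313, 299.5 and 475 units in Cre-Mhi and 763, 1142, 1233 and 1621 in Cre-Mlo arrays (1.77, SE 0.15, adjusted p = 0.0225). Array 4 was the highest of its group in both fractions, and Hspa8, Hsp90aa1 and Dnajb1 gave -0.23, 0.01 and -0.19.

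In glycolysis 0 of 15 passed with limma, 3 had an unadjusted p under 0.05 and 1 passed the methods' t-test after adjustment. Slc16a1, a lactate transporter, had the widest difference, with 27.2, 19.8, 143 and 64 units in Cre-Mhi and 482, 299, 410.5 and 477 in Cre-Mlo arrays (3.12, SE 0.49, adjusted p = 0.0672). In cholesterol and fatty acid synthesis 1 of 15 fell and 0 rose. That gene was Scd1, a desaturase, from 30364 ± 2273 to 15346 ± 2674 units, a 1.98-fold lower mean (adjusted p = 0.0443), and by more in a second bright probe set (-1.59, adjusted p = 0.0225).

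Outside the lists, the rises described next are the widest among called bright probe sets that match 1 gene, and a probe set without a gene name rose further (5.88). Reln, a secreted glycoprotein best known in neurons, had 275, 434, 611 and 216 units in Cre-Mhi and 1527, 2442, 4360.1 and 2643 in Cre-Mlo arrays (2.85, SE 0.24, adjusted p = 0.0225). Arntl, a circadian transcription factor, had 2159.7, 2922, 3229.7 and 6400.1 against 14393, 15373, 17516 and 19571 (2.30, SE 0.22, adjusted p = 0.0258). Litaf, a protein of late endosomes, had 2038, 1548, 2614 and 2046 against 10758, 9223, 9014 and 8759.8 (2.21, SE 0.17, adjusted p = 0.0213). Each group of Reln spanned more than a 2-fold range, yet no array crossed. Alkaline phosphatase (Alpl, 2.23) and the histone chaperone Asf1a (2.22, and 2.05 for a brighter second probe set) also rose, as did Ankrd33b (2.51), Dgcr6 (2.47) and Mfsd4a (2.42), with adjusted p of 0.0225 to 0.0401.

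Falls outside the lists, among called probe sets that match 1 gene other than an immunoglobulin gene, were led by Wfdc21. Wfdc21, a small secreted protein, had 6668, 6770.2, 8041 and 4915 units in Cre-Mhi and 469, 642, 512 and 374 in Cre-Mlo arrays (-3.73, SE 0.14, adjusted p = 0.00585). Pld4, a nuclease of endolysosomes, had 8399.6, 8742, 9182 and 8384 against 1199, 1250.3, 1593 and 1194 (-2.74, SE 0.12, adjusted p = 0.00651). Pkib, an inhibitor of protein kinase A, had 2227, 2621, 2356 and 1440.4 against 302, 359, 316 and 239.9 (-2.81, SE 0.12, adjusted p = 0.00651). The pair differences of Pld4 ran from -2.81 to -2.53 and those of Pkib from -2.90 to -2.59. Srpk3, a kinase of splicing factors, gave -2.74 (adjusted p = 0.00686), and Lmo2, a LIM-domain protein of early blood cells, -2.54 (adjusted p = 0.0225). A probe set that matches both Il4i1 and Il4i1b fell further than Wfdc21, with 2217.9, 2780.7, 1470.0 and 973 units in Cre-Mhi and 70, 115.7, 76.2 and 40.9 in Cre-Mlo arrays (-4.60, SE 0.16, adjusted p = 0.00455).

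**Figure D5:**
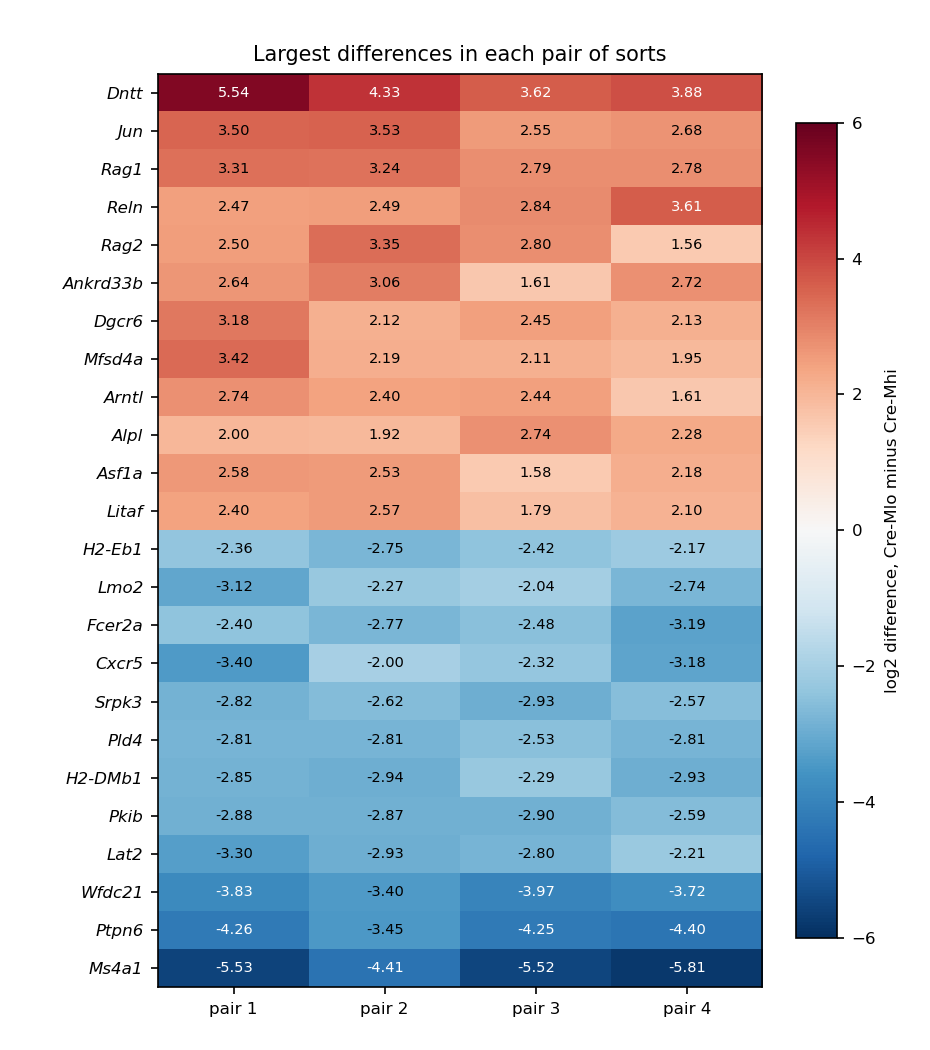
Log2 difference, Cre-Mlo minus Cre-Mhi, of each pair (columns) for the 12 widest rises and 12 widest falls (rows) among called genes other than immunoglobulin genes with a mean of at least 500 units in the higher group. Red is higher and blue lower in Cre-Mlo, from 5.54 in pair 1 of Dntt to -5.81 in pair 4 of Ms4a1. The same sign in all 4 pairs was a condition for a gene to be shown.

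Markers of other cell types gave no call. In T cell, myeloid, NK, erythroid and megakaryocyte, mast and eosinophil, and stromal lists 0 of 12, 18, 8, 10, 12 and 13 genes passed with limma or by the methods' t-test after adjustment, and 1, 2, 1, 0, 0 and 1 had an unadjusted p under 0.05. Means were under 200 units in both fractions for 6 of 12 T cell and 7 of 18 myeloid genes. Cd3e, Cd3d, Cd3g and Lyz2 were among them, with means of at most 150 units in either fraction. The rest were brighter in at least 1 fraction, such as Fcgr3 of the myeloid list. It had means of 212 units in Cre-Mhi and 328 in Cre-Mlo cells (0.66, limma unadjusted p = 0.0238, adjusted p = 0.192). Cd2, which is also in the T cell list, was bright in both, with means of 11661 units in Cre-Mhi and 9769 in Cre-Mlo cells (-0.24), and made up most of that list's summed signal of 10750.2 to 16704.2 units in Cre-Mhi and 11332.5 to 14970.6 in Cre-Mlo arrays. The summed signal of the myeloid list was 6021.7 to 7902.9 units in Cre-Mlo and 5060.9 to 9488 in Cre-Mhi arrays. The NK list was 859 to 1364 units in Cre-Mlo and 1203 to 2350.0 in Cre-Mhi arrays, with Gzmb at 102 and 316 units on average (-1.62, adjusted p = 0.0747). The part of any other cell type in the differences was not tested further. Of 8 B lineage markers Blnk rose and 0 fell. Cd79a, Vpreb3, Pax5, Ebf1 and Pou2af1 had differences between -0.13 and 0.33, and Ptprc (-0.74) and Cd24a (-0.35) were lower without overlap, and none of these passed. The list summed to 256352 to 274565 units in Cre-Mlo and 246967 to 263187 in Cre-Mhi arrays.

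Cre-Mhi cells were set beside Ctrl-Mhi cells as a reference. That comparison shares the Cre-Mhi arrays with the pairs, so its values are given side by side and not as separate support. With limma 2 of 9977 probe sets passed between Cre-Mhi and Ctrl-Mhi (0.0200%, 554 at an unadjusted p under 0.05), Mid1 and Il4, both lower in Cre-Mhi cells and dim there (11.7 to 33.4 and 8.2 to 15.5 units).

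Rag1 was 2092, 1648, 3174 and 2404 units in Ctrl-Mhi arrays, all below the 3823 to 6489 of Cre-Mhi, a difference that did not pass (Cre-Mhi minus Ctrl-Mhi 1.03, SE 0.25, adjusted p = 0.751). The Ighv1-54 probe set had a mean of 51544 ± 8948 in Ctrl-Mhi and 31113 ± 4709.6 in Cre-Mhi cells (-0.73, adjusted p = 0.751). Socs1 had 4445 ± 927 and 6601 ± 868 (0.59, adjusted p = 0.803). In these 3 the Cre-Mhi mean lay between those of Ctrl-Mhi and Cre-Mlo cells.

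For other genes the means of Ctrl-Mhi and Cre-Mhi cells were nearly equal. Ms4a1 had 58343 ± 3947 units in Ctrl-Mhi and 58468 ± 10523 in Cre-Mhi cells, against 1568 ± 727 in Cre-Mlo. Ptpn6 had 12321 ± 2139, 12068 ± 636 and 728 ± 210.3, and Cxcr4 had 5175 ± 1245, 5175 ± 675 and 12048 ± 789 in the same order. Ifit2 and Mx1 had their highest means in Cre-Mhi cells, with 1798, 2987 and 1166 units for Ifit2 and 5135, 6319.9 and 3219 for Mx1, and the Cre-Mhi and Ctrl-Mhi levels of neither gene passed the test (adjusted p = 0.862 and 0.871).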

How the data were processed

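RNA of sorted cells was hybridized to U74Av2 arrays (Affymetrix). The authors computed signal intensities with Microarray Suite 5.0, applied a mask and scaled each array to 1500 units, and deposited them on a linear scale. Detection p-values were not used here, so a floor of 20 was set before taking log2. For the 4 Cre-Mlo and 4 Cre-Mhi arrays a linear model with the number in the title as a block was fitted (limma 3.58.1, R 4.3.3, lmFit and eBayes). Two-sided p-values were adjusted over 9977 probe sets by the Benjamini-Hochberg method and called under 0.05. Residual degrees of freedom were 3. Cre-Mhi and Ctrl-Mhi were fitted without a block.

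The pairing comes from the titles. Deviations from group means of same-numbered Cre arrays correlated at 0.01, 0.07, 0.12 and 0.17 over all probe sets, and at 0.20, 0.18, 0.28 and 0.47 over 5014 with a mean of at least 500 units, where each Cre-Mlo array correlated best with its own number. Xist and Eif2s3y also matched within pairs. Since separate mice are not stated, p-values measure only the spread between these arrays. Other deposited files were not used here. Tables and figures were made in Python 3.11.15.

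On simulated data for this comparison, 50 probe sets among 9977 were changed by each size, all drawn from those averaging at least 200 units. The blocked fit recovered 0, 44, 74 and 96% of log2 changes of 0.5, 1, 2 and 4, with 7 false calls. Recovery of changes in dimmer probe sets was not simulated. With 4 arrays a group, the number of arrays limits precision.

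Named genes were the 12 widest rises and 12 widest falls among called probe sets with 1 gene, no immunoglobulin gene, the same sign in 4 pairs and a mean of at least 500 units in the higher group; up to 4 members of each of 28 gene lists with the smallest adjusted p and any called member; the 5 genes with the smallest p for the number term; genes named in the article; and the immunoglobulin loci. Other genes named were chosen after their values were seen. Members, lists and tests were chosen with earlier results of these data known, so a list's count is no independent evidence. Alternatives were fits without the block, all 12 arrays together, floors of 100 and 1, quantile normalization, median centring, a minimum mean of 200 units, an intensity trend, the methods' unequal-variance test and leaving out each pair. A random block, a minimum mean of 500 units and a fit without Cre-Mhi 3 were chosen after seeing the data.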

Additional observations from a re-analysis of the deposited data

Results flagged for a closer look

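Among the genes and probe sets whose single-array values were examined, 120 groups of 4 arrays were screened for an array far from the rest of its group, and 8 values stood out by Dixon's criterion at 95%, which chance passes in about 1 of 20 groups. Array Cre-Mlo 3 gave 3 of them, with 138.7 units of Egr1, 1593.1 of Pld4 and 749.3 of Srpk3. Array Cre-Mhi 4 gave 2, with 31178.2 units of Cd72 and 475.3 of Hspa1b. The others were Ptpn6 in Cre-Mlo 2 (1041.4 units), Plcg2 in Cre-Mhi 1 (9983.8 units) and Egr1 in Cre-Mhi 2 (4196.6 units). In none of these genes did the value bring the 2 groups into overlap.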

How the results depend on the processing

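Of the 200 calls, 184 were shared with the fit without the replicate block, which made 460, and 197 with the intensity trend, which made 858. Other settings gave 607 (all 12 arrays), 501 (floor 100), 643 (mean of at least 200 units), 178 (floor 1), 192 (quantile) and 179 (median centring), and shared 173 to 194 of the 200 calls. The methods' t-test gave 217 (3 criteria) or 296 of 9955 (adjusted). It shared fewer of the 200 calls, 141 with the 3 criteria and 116 after adjustment. Settings chosen after seeing the data gave 639 (random block), 974 (mean of at least 500 units) and 370 (no pairing, without Cre-Mhi 3). Leaving out a pair left 0 to 8. The number term gave 4 (floor 100), 0 (floor 1; limma), 1 (quantile), 6 (mean of at least 200 units) and 18 (trend), against 2. Cre-Mhi against Ctrl-Mhi gave 0 (floor 100, mean of at least 200 units, trend, or replicate block; limma), 1 (floor 1 or quantile) and 0 to 2 without an array.

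All 55 called genes named by rule kept their direction in every setting that tested them, and 52 to 55 of them lost the call without a pair. Calls were also lost at floor 1 (6: Cd72, Cr2, Fcgr2b, Ly86, Scd1 and Sh3bp2), after quantile normalization (3: Rag2, Sh3bp2 and Tnfaip3) or median centring (3: Cd72, Fcgr2b and Ly86), at floor 100 (2: Cr2 and Rag2), unpaired without Cre-Mhi 3 (2: Ifit2 and Ly86) and with all 12 arrays (1: Reln). Genes that turned sign had not passed: Cd3d -0.046 at floor 100; Mtm1 0.12, Notch1 -0.021 and Pam 0.11 in the unpaired fit without Cre-Mhi 3; and without a pair F2r (-0.067 to 0.10), Mapk12 (-0.24 to 0.33) and Notch1 (-0.0096 to 0.36). Fewer samples leave 2 residual degrees of freedom in a 3-pair fit, and other causes were not tested. Where a group lies under the floor, as Cr2 does in Cre-Mlo cells, there is no reliable fold. The fold of Dntt is also uncertain, since its Cre-Mhi values were dim (57.2 to 261.5 units).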

Other observations

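Several called genes belong to no list above and were chosen after their values were seen. Mef2c, a transcription factor that acts in B cell receptor responses, was lower in Cre-Mlo cells by all 4 of its probe sets, with log2 differences of -2.17 to -1.59 and adjusted p of 0.0189 to 0.0334. The brightest gave 8094.8, 8365.3, 6815.8 and 7038.9 units in Cre-Mhi and 2193.2, 2547.9, 3009.9 and 2339.4 in Cre-Mlo arrays. Ctsh, a lysosomal protease, fell by 2.22 on the log2 scale (adjusted p = 0.0165).

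The survival kinases Pim2 and Pim1 rose, by 1.68 (adjusted p = 0.0226) and by 1.19 (adjusted p = 0.0498). A second Pim1 probe set did not pass (1.15, adjusted p = 0.0782). Ezh2, the histone methyltransferase of the Polycomb complex, went from 5482 to 17547 units on average (1.70, adjusted p = 0.0234). Gpam, an enzyme of glycerolipid synthesis, had 2972.5, 3321.4, 3007.3 and 3327.9 units in Cre-Mhi and 13413.9, 13062.5, 14224 and 13402.2 in Cre-Mlo arrays (2.10, adjusted p = 0.0116). Il12a, which encodes the p35 chain of interleukin-12, rose by 1.89 (adjusted p = 0.017).

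The smallest p of all probe sets was that of a member of the 15 called probe sets without a gene name. It gave 25.9, 29.1, 30.7 and 36.2 units in Cre-Mhi and 1592, 1475, 1796 and 2410.1 in Cre-Mlo arrays (5.88, SE 0.12, adjusted p = 0.00243). In Ctrl-Mhi arrays it lay between 43.6 and 196 units. Another without a gene name went from 40765 ± 4699 to 1058 ± 34.9 units (-5.26, SE 0.13, adjusted p = 0.00255).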
